A study of Arabidopsis thaliana with 12 samples.

Results

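Glucosinolates are sulfur-rich defense compounds of Arabidopsis and its relatives, and their synthesis genes were compared here across an autoimmune line and 2 of its suppressors in leaves. The gene set was chosen by AGI code from a list of 35 genes of the pathway. Of these, 34 were found in the deposited table of 28496 genes, and AOP2 (AT4G03060) is not analysed here. The 34 genes fall into 19 of the aliphatic branch, 12 of the indole branch and 3 that serve both.

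Leaf RNA was sequenced in 12 samples, 3 for each of 4 genotypes, from 3 independent experiments, and each sample held leaves pooled from more than 1 plant. Col-0 is the wild type. ADR1-L2 D484V, called ADR1-L2 DV below, expresses from its native promoter an activation mimic of the helper immune receptor ADR1-L2, altered in the MHD motif, as a transgene in the adr1-l2-4 mutant. ADR1-L2 D484V 26.6 and ADR1-L2 D484V 30.4 are called sadr1-26.6 and sadr1-30.4. Each is a single mutant line from a suppressor screen with a mutation in SADR1, a TIR-NB-LRR receptor gene. All 3 groups other than Col-0 carry the transgene and the adr1-l2-4 mutation. The values analysed were 1 read value per gene and genotype, combined by the authors over the 3 samples. No spread between samples, replicate check or p-value therefore stands beside any ratio here. The authors' own log2 fold changes and FDR values for each genotype against Col-0 were not used. Bracketed ranges are 95% intervals for counting error only, taking the values as read counts, and leave out the variation between plants.

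The table held between 20013826 reads in sadr1-26.6 and 21277026 in the ADR1-L2 DV line. ADR1-L2 itself had 1148 reads in Col-0, 8543 in the ADR1-L2 DV line, 3254 in sadr1-26.6 and 1855 in sadr1-30.4, and SADR1 had 383, 699, 443 and 339 reads in the same order. These reads count transcripts of the gene and do not separate the transgene from the endogenous copy, and those of SADR1 do not check its mutations. The root hair genes COBL9 and EXPA7 had at most 1 read in any genotype, and the 7 leaf mesophyll markers were all abundant. Of the other root and flower markers, AP3 had at most 3 reads and PI at most 12, and AG had 17, 1, 30 and 17. AGP31 was not silent, with 254 reads in Col-0, 70 in the ADR1-L2 DV line, 115 in sadr1-26.6 and 264 in sadr1-30.4. Ratios below are log2 ratios of scaled reads with 1 read added, where scaling made the median of well-covered genes equal between genotypes. Genes under 20 scaled reads in both genotypes were left out, and a gene past 2-fold has a log2 ratio of at least 1 or at most -1. ADR1-L2 DV was past 2-fold above Col-0 at 7.69% of 17442 genes and below it at 7.12%.

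Aliphatic glucosinolates are built from methionine and indole glucosinolates from tryptophan. In the aliphatic branch the methionine side chain is first lengthened in the chloroplast, and in both branches the amino acid is converted by cytochromes P450 of the CYP79 and CYP83 families into an activated oxime, which receives sulfur, then glucose, then sulfate. Each branch has its own R2R3-MYB activators, which work with bHLH proteins of the MYC group. Aliphatic glucosinolates are best known as deterrents of chewing insects, while the indole branch feeds the PEN2 pathway of antimicrobial defense and also camalexin synthesis.

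The upstream sequences of the 4 aliphatic genes with a ratio more than 4-fold lower in ADR1-L2 DV are shown. These genes are the regulators MYB29 and MYB76 and the side chain oxygenases FMO GS-OX1 and FMO GS-OX3. For MYB76 and FMO GS-OX1 the counting interval, given below, reached inside 4-fold. The sequences are the 250 bases before the annotated gene start, read 5′ to 3′ on the gene's strand from the RefSeq TAIR10.1 assembly. Capitals mark the W-box (TTGACC or TTGACT, bound by WRKY factors), the G-box (CACGTG, bound by bHLH and bZIP factors) and the AC element (ACCNANC, bound by R2R3-MYB factors), searched on both strands.
MYB29, chr5:2446419-2446668, plus strand: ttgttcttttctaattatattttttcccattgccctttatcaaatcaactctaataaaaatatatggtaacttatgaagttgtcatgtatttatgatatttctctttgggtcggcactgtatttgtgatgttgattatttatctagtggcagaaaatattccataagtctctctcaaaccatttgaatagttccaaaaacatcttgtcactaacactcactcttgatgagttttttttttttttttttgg
MYB76, chr5:2449777-2450026, plus strand: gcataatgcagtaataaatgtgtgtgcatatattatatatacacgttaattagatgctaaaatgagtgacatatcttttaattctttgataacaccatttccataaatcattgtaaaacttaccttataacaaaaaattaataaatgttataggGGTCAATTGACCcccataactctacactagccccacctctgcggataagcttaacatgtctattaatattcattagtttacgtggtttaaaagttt
FMO GS-OX1, chr1:24502777-24503026, minus strand: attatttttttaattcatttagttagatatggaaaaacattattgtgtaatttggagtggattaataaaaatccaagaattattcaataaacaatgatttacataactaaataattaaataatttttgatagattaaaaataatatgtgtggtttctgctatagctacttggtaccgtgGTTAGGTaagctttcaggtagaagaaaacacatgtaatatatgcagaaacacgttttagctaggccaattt
FMO GS-OX3, chr1:23159484-23159733, plus strand: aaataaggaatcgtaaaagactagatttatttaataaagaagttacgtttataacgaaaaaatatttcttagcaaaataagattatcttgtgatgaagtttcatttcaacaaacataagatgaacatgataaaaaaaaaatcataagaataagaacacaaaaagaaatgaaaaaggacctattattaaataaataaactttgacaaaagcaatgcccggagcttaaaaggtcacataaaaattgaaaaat
The MYB76 window held a pair of adjoining W-boxes on opposite strands, which meet at their 5′ ends and point away from each other, and are followed by 90 and 84 bases up to the gene start, and the FMO GS-OX1 window held 1 AC element. The MYB29 and FMO GS-OX3 windows held no match to any of these letters. TTGACC and the AC element can share bases where they meet. Over the windows of the same length of 26709 genes, 28.45% held a W-box, 27.81% an AC element and 6.58% a G-box. Of the 19 aliphatic windows, 3 held a W-box, 8 an AC element and 2 a G-box, and of the 12 indole windows, 5 held a W-box, 4 an AC element and 0 a G-box.

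Several genes of the pathway have close copies, and in 2 such pairs of the aliphatic branch the copies stood on opposite sides of Col-0 in the ADR1-L2 DV line. Stretches of their coding sequences from the same assembly show how far reads could tell the copies apart, with capitals at the bases that differ between the copies of a pair. CYP79F1 and CYP79F2 lie side by side on chromosome 1, and MAM1 and MAM3 are near neighbours on chromosome 5.
CYP79F1, coding bases 32 to 121: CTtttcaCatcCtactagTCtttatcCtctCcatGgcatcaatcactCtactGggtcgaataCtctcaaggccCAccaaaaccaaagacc
CYP79F2, coding bases 29 to 118: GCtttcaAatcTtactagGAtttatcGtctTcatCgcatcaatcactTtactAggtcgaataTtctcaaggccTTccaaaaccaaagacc
MAM1, coding bases 85 to 174: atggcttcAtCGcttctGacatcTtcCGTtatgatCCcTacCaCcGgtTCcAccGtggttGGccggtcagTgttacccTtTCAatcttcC
MAM3, coding bases 1 to 90: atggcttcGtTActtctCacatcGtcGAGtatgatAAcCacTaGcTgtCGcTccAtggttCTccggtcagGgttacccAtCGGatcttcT
The CYP79F1 and CYP79F2 stretches differed at 14 of 90 bases, and those of MAM1 and MAM3 at 26 of 90. Over the aligned coding sequences, CYP79F1 and CYP79F2 were 90.71% identical with a longest identical run of 100 bases, whereas MAM1 and MAM3 were 78.94% identical with a longest run of 30. How the authors' counting treated reads that match both copies is not given in the sources used here, so values of the less abundant copy of each pair are uncertain.

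Aliphatic genes were lower in ADR1-L2 DV than in Col-0 as a group. Of the 19 genes, 15 were past 2-fold lower and 0 past 2-fold higher, beside 7.12% and 7.69% of all genes. Their median log2 ratio was -1.63, against 0.02 over all genes. The genes of this branch took 0.187% of all reads in Col-0 and 0.0829% in the ADR1-L2 DV line, then 0.183% in sadr1-26.6 and 0.222% in sadr1-30.4. In a whole leaf, fewer cells that express a gene and less RNA per cell cannot be told apart.

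The 3 aliphatic MYB activators were all among the lower genes. MYB28 (AT5G61420), the main activator of the branch in leaves, had 1587 reads in Col-0, 554 in the ADR1-L2 DV line, 1248 in sadr1-26.6 and 1981 in sadr1-30.4. MYB29 (AT5G07690), which overlaps MYB28 in function, had 768, 87, 503 and 938 reads in the same order. MYB76 (AT5G07700), the minor member that lies next to MYB29 on chromosome 5, had 34, 7, 37 and 55 reads. ADR1-L2 DV was thus the lowest of the 4 genotypes for each regulator, and MYB29 differed most. Its log2 ratio to Col-0 was -3.40 [-3.76, -3.10], which is 10.6-fold lower, compared with -1.79 [-1.94, -1.66] for MYB28. MYB76 gave -2.38 [-3.98, -1.36], a wide interval because only 7 reads remained. The ratio of MYB29 to MYB28, taken per kb of exon within a genotype and so free of scaling between genotypes, was 0.553 [0.507, 0.603] in Col-0 and 0.180 [0.142, 0.225] in the ADR1-L2 DV line. It was 0.461 [0.415, 0.512] in sadr1-26.6 and 0.541 [0.50, 0.585] in sadr1-30.4.

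**Figure D1:**
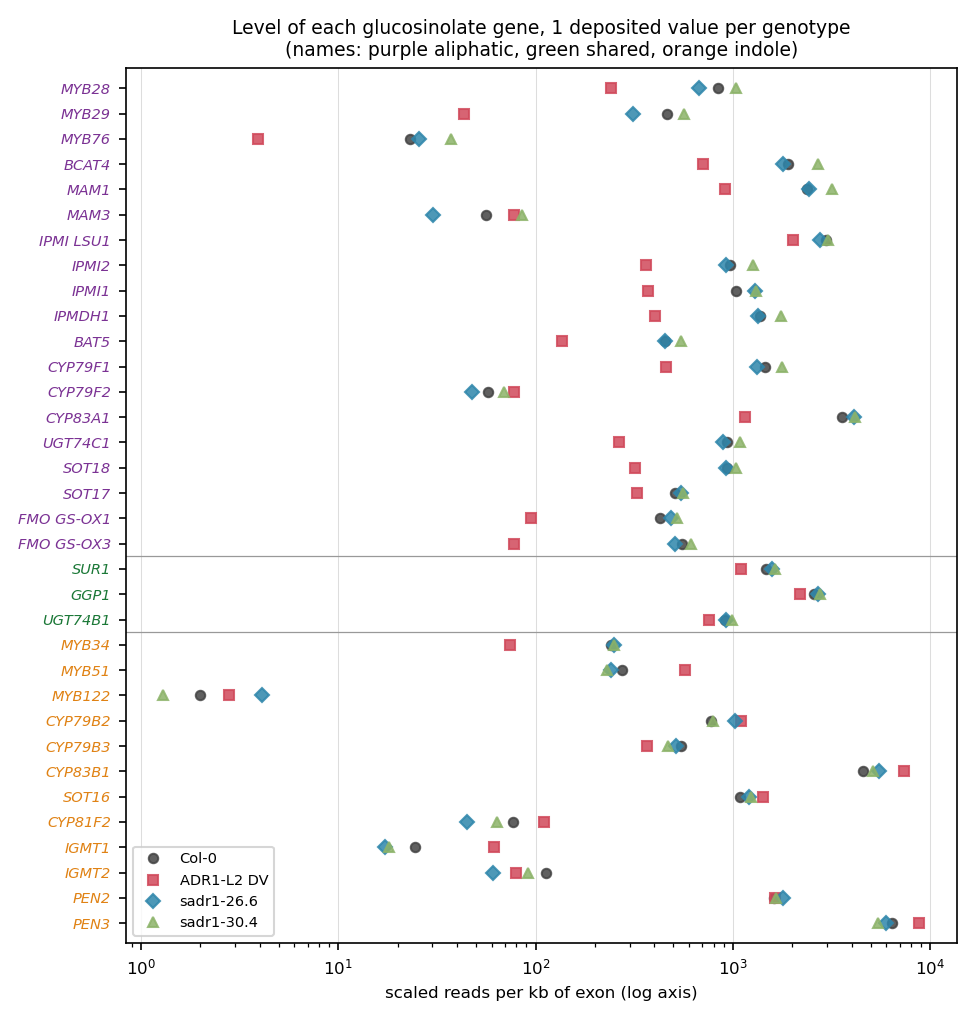
Scaled reads per kb of exon (log axis) for the 34 glucosinolate genes, 1 value per genotype, with circles for Col-0, squares for ADR1-L2 DV, diamonds for sadr1-26.6 and triangles for sadr1-30.4. The squares stand apart to the left for most aliphatic genes and not for MAM3 or CYP79F2, and they lie to the right for MYB51 and CYP83B1.

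The chain elongation genes make the lengthened methionine derivatives. Of the 8, 6 were past 2-fold lower in ADR1-L2 DV, beside 7.12% of all genes, with a median log2 ratio of -1.42. BCAT4 (AT3G19710), the aminotransferase that starts the cycle, had 2654 reads in Col-0, 1187 in the ADR1-L2 DV line, 2425 in sadr1-26.6 and 3782 in sadr1-30.4, a log2 ratio of -1.44 for ADR1-L2 DV against Col-0. MAM1 (AT5G23010), the synthase that adds carbon to the chain, had 4642, 2178, 4681 and 6270 reads and a ratio of -1.37 [-1.44, -1.3]. The chloroplast transporter BAT5 (AT4G12030) had 959, 351, 939 and 1164 reads and a ratio of -1.73. For each of these genes ADR1-L2 DV was the lowest genotype and sadr1-30.4 the highest. IPMDH1 (AT5G14200), the dehydrogenase of the cycle, had 2235, 799, 2135 and 2892 reads and a ratio of -1.76. The isomerase small subunits IPMI2 (AT2G43100) and IPMI1 (AT3G58990) had 1106, 505, 1031 and 1468 reads and 1241, 538, 1513 and 1565 reads, with ratios of -1.41 and -1.48. Their partner, the large subunit IPMI LSU1 (AT4G13430), which also serves leucine synthesis, stayed within 2-fold at -0.55, with 5803 reads in Col-0 and 4809 in the ADR1-L2 DV line.

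MAM3 (AT5G23020), the synthase needed for the longest side chains, was the other elongation gene within 2-fold and the only one above Col-0. It had 98 reads in Col-0, 165 in the ADR1-L2 DV line, 52 in sadr1-26.6 and 151 in sadr1-30.4, a pattern unlike that of MAM1. Its log2 ratio was 0.47 [0.10, 0.85] in the ADR1-L2 DV line and -0.87 [-1.40, -0.38] in sadr1-26.6. The ratio of MAM3 to MAM1 per kb was 0.0237 [0.0192, 0.0289] in Col-0, 0.0850 [0.0721, 0.0996] in the ADR1-L2 DV line, 0.0125 [0.00929, 0.0164] in sadr1-26.6 and 0.0270 [0.0228, 0.0317] in sadr1-30.4. MAM3 transcripts thus made up a larger part of the pair in ADR1-L2 DV than in the other genotypes, with MAM1 the more abundant copy in all 4.

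Among the 6 genes that build the aliphatic core structure, 4 were past 2-fold lower, beside 7.12% of all genes, with a median of -1.59. CYP79F1 (AT1G16410), which makes the oxime from short and long chains, had 4541 reads in Col-0, 1734 in the ADR1-L2 DV line, 4073 in sadr1-26.6 and 5587 in sadr1-30.4, and a ratio of -1.67 [-1.75, -1.59]. Its close copy CYP79F2 (AT1G16400), which takes only the long chains, had 111, 183, 90 and 135 reads and a ratio of 0.44 [0.10, 0.80]. CYP79F2 was the second aliphatic gene above Col-0, together with MAM3. The ratio of CYP79F2 to CYP79F1 per kb was 0.0396 [0.0325, 0.0479] in Col-0 and 0.171 [0.146, 0.199] in the ADR1-L2 DV line, against 0.0358 [0.0287, 0.0442] in sadr1-26.6 and 0.0392 [0.0328, 0.0465] in sadr1-30.4. Both genes that stood above Col-0 are thus known for long-chain glucosinolates, and both had under 200 reads in every genotype.

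CYP83A1 (AT4G13770), the next enzyme, had the highest level per kb of the aliphatic genes in Col-0. It had 6561 reads in Col-0, 2566 in the ADR1-L2 DV line, 7373 in sadr1-26.6 and 7682 in sadr1-30.4, with a log2 ratio of -1.63 [-1.70, -1.57]. UGT74C1 (AT2G31790), the glucosyltransferase, had 1460, 505, 1361 and 1718 reads and a ratio of -1.81. The final step is taken by sulfotransferases, and its 2 aliphatic enzymes differed from each other. SOT18 (AT1G74090) had 1240, 512, 1187 and 1384 reads and a ratio of -1.55, whereas SOT17 (AT1G18590) had 732, 567, 762 and 806 reads and a ratio of -0.65. The level of SOT17 relative to SOT18 per kb was 0.544 [0.495, 0.596] in Col-0 and 1.02 [0.903, 1.15] in the ADR1-L2 DV line.

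FMO GS-OX1 and FMO GS-OX3, flavin monooxygenases that oxidize the side chain sulfur of the finished aliphatic compounds, were among the genes that differed most. FMO GS-OX3 (AT1G62560) had 1204 reads in Col-0, 205 in the ADR1-L2 DV line, 1082 in sadr1-26.6 and 1354 in sadr1-30.4, and FMO GS-OX1 (AT1G65860) had 707, 191, 785 and 874. Their log2 ratios in ADR1-L2 DV were -2.83 [-3.05, -2.62] and -2.16 [-2.40, -1.93], which are 7.09-fold and 4.47-fold lower. The promoter windows of both are printed above. Their relatives FMO GS-OX2, FMO GS-OX4 and FMO GS-OX5, outside the gene set, had ratios of -0.03, -1.38 and -0.21 in ADR1-L2 DV. Of these relatives, only FMO GS-OX4 was past 2-fold. The 4 aliphatic members nearest to the 2-fold line on either side were MAM1 and IPMI2 among the lower genes, and SOT17 and IPMI LSU1 within it.

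**Figure D2:**
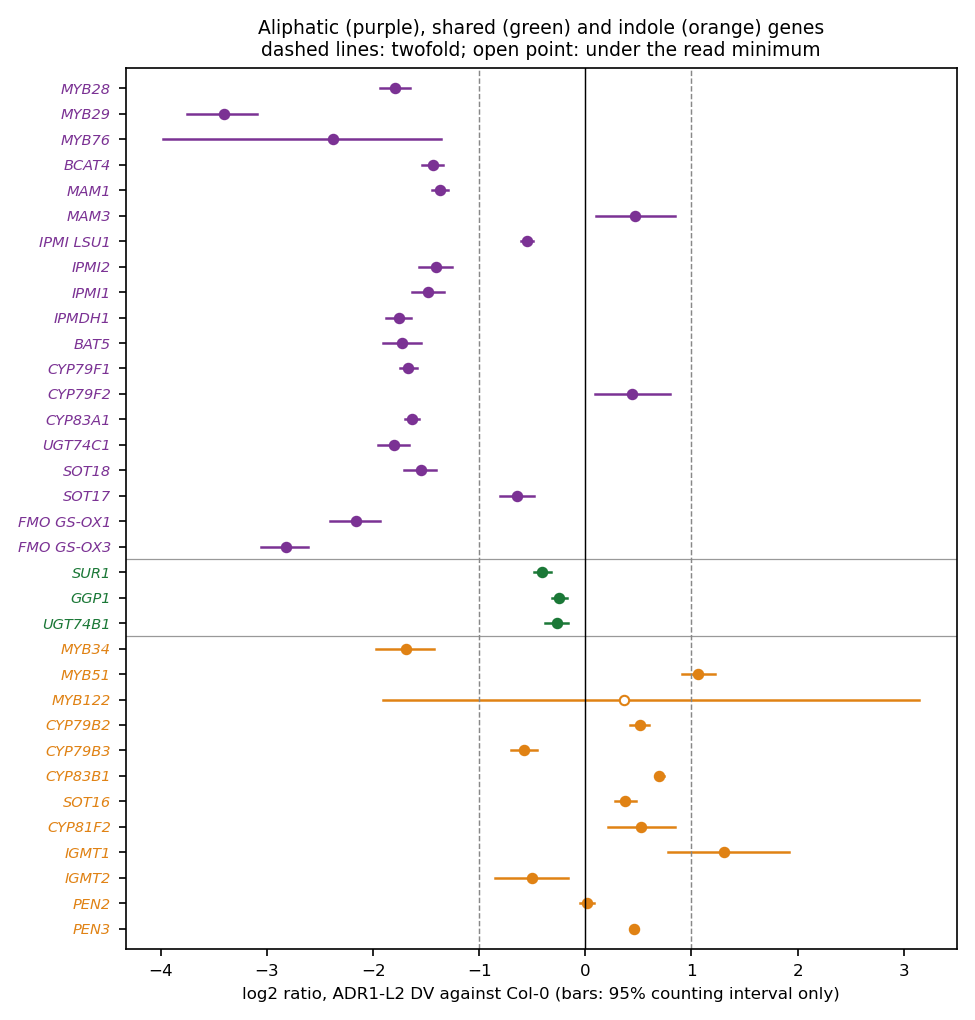
Log2 ratio of ADR1-L2 DV to Col-0 for each gene, with bars for the 95% counting interval, which leaves out variation between plants. Dashed lines mark 2-fold. Of the 19 aliphatic genes in purple, 15 lie left of the lower line, while the indole genes in orange lie on both sides of 0 and the 3 shared genes in green lie between -0.41 and -0.24.

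The indole branch did not share this direction. Of its 12 genes 11 had enough reads, and in ADR1-L2 DV 2 were past 2-fold higher, 1 past 2-fold lower and 8 above 0, with a median log2 ratio of 0.46. Over all genes, 7.69% were past 2-fold higher, 7.12% past 2-fold lower and 52.0% above 0. With TMM scaling 7 of the 11 lay above 0, beside 50.4% of all genes, and with total-read scaling 8, beside 66.8%. The median of the aliphatic genes was lower than that of the indole genes by 2.09 on the log2 scale. Indole genes took 0.235% of all reads in Col-0 and 0.369% in the ADR1-L2 DV line, with 0.234% in sadr1-26.6 and 0.214% in sadr1-30.4. Most of these reads came from PEN3 and CYP83B1. The transporter PEN3 alone had 30263 of 47368 in Col-0 and 50354 of 78614 in the ADR1-L2 DV line. These shares are of total reads, and scaling by total reads raised ratios of ADR1-L2 DV to Col-0 by 0.20.

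The indole regulators stood on opposite sides of Col-0. MYB51 (AT1G18570), the activator most associated with defense, had 469 reads in Col-0, 1187 in the ADR1-L2 DV line, 402 in sadr1-26.6 and 395 in sadr1-30.4. MYB34 (AT5G60890), first known for its control of tryptophan synthesis, had 409, 153, 413 and 430 reads. MYB51 was highest and MYB34 lowest in ADR1-L2 DV, and the other 3 genotypes lay close together for both. The log2 ratios to Col-0 were 1.06 [0.91, 1.22] for MYB51 and -1.69 [-1.97, -1.43] for MYB34. Per kb, MYB51 stood to MYB34 as 1.14 [0.998, 1.31] in Col-0 and as 7.72 [6.52, 9.20] in the ADR1-L2 DV line, against 0.969 [0.843, 1.11] in sadr1-26.6 and 0.915 [0.796, 1.05] in sadr1-30.4. MYB122 (AT1G74080), the remaining regulator, had 3, 5, 6 and 2 reads, too few to compare. Across branches, the ratio of MYB51 to MYB28 per kb was 0.328 [0.295, 0.363] in Col-0 and 2.38 [2.15, 2.63] in the ADR1-L2 DV line.

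The 4 core enzymes of the indole branch all stayed within 2-fold, with a median of 0.45. CYP79B2 (AT4G39950) and CYP79B3 (AT2G22330) both turn tryptophan into its oxime. CYP79B2 had 1584 reads in Col-0, 2740 in the ADR1-L2 DV line, 2039 in sadr1-26.6 and 1630 in sadr1-30.4, while CYP79B3 had 1174, 953, 1075 and 1014. Their log2 ratios were 0.51 and -0.58, and CYP79B2 stood to CYP79B3 per kb as 1.42 [1.31, 1.53] in Col-0 and as 3.02 [2.80, 3.25] in the ADR1-L2 DV line. CYP79B2 remained higher relative to CYP79B3 in sadr1-26.6 at 1.99 [1.85, 2.14] and in sadr1-30.4 at 1.69 [1.56, 1.83]. CYP83B1 (AT4G31500), the following enzyme, had 8280, 16292, 9795 and 9437 reads and a ratio of 0.70 [0.66, 0.74]. The sulfotransferase SOT16 (AT1G74100) had 1410, 2222, 1533 and 1615 reads and a ratio of 0.38.

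Ratios between matched enzymes of both branches need no scaling between genotypes, and the pairs below were chosen after values were seen. CYP83B1 stood to its aliphatic counterpart CYP83A1 per kb as 1.27 [1.23, 1.31] in Col-0, 6.38 [6.12, 6.65] in the ADR1-L2 DV line, 1.34 [1.3, 1.38] in sadr1-26.6 and 1.23 [1.2, 1.27] in sadr1-30.4. CYP79B2 stood to CYP79F1 as 0.534 [0.504, 0.566] in Col-0 and 2.42 [2.28, 2.57] in the ADR1-L2 DV line, then 0.767 [0.727, 0.809] in sadr1-26.6 and 0.447 [0.423, 0.472] in sadr1-30.4. SOT16 stood to SOT18, its neighbour on chromosome 1, as 1.16 [1.08, 1.26] in Col-0 and 4.44 [4.03, 4.89] in the ADR1-L2 DV line. In sadr1-26.6 and sadr1-30.4 this ratio was 1.32 [1.22, 1.43] and 1.19 [1.11, 1.28]. In these 3 pairs ADR1-L2 DV was the genotype with the highest share of the indole enzyme. Other copies of these steps were not paired between branches. Against Col-0 in ADR1-L2 DV, CYP79B3 lay at -0.58, CYP79F2 at 0.44 and SOT17 at -0.65. For CYP79B3 and CYP79F2 the indole gene was thus lower and the aliphatic gene higher, the other way round from CYP79B2 and CYP79F1.

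**Figure D3:**
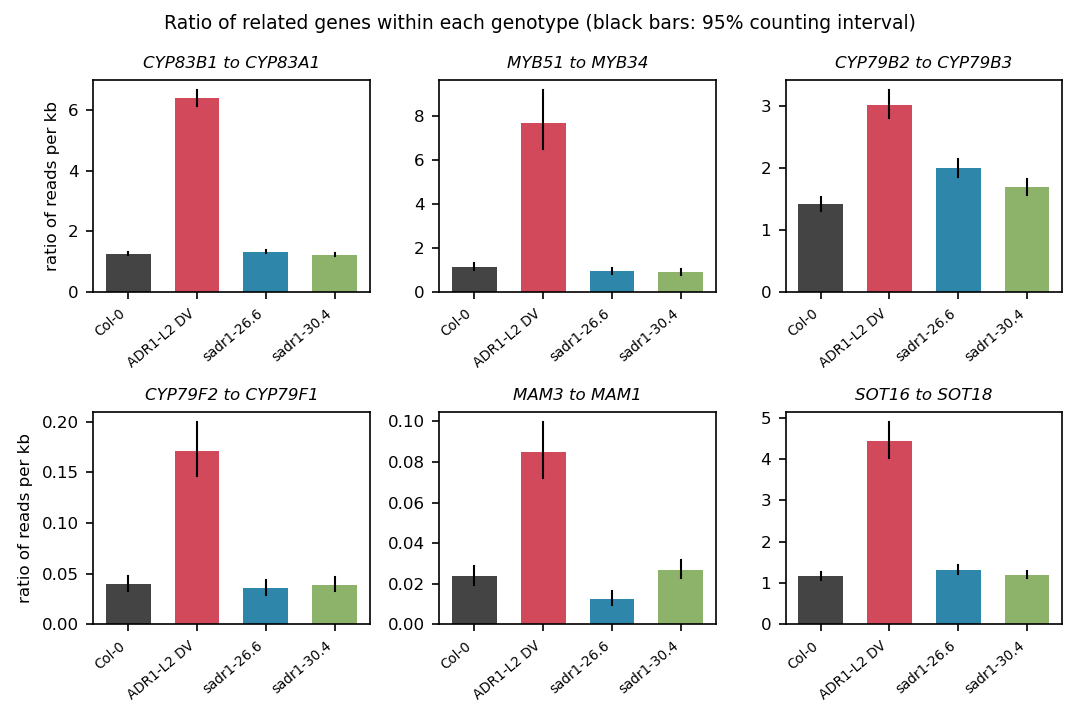
Ratio of reads per kb of exon between related genes within each genotype (bars from 0, black lines for the 95% counting interval). The pairs were chosen after values were seen. Each of the 6 ratios is highest in ADR1-L2 DV, for example 6.38 for CYP83B1 to CYP83A1 against 1.23 to 1.34 in the other genotypes. Written the other way round, each ratio would be lowest in ADR1-L2 DV, so their common direction rests on the order within pairs.

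The enzymes that modify indole glucosinolates had few reads. CYP81F2 (AT5G57220), which hydroxylates the indole ring for the PEN2 pathway, had 130 reads in Col-0, 227 in the ADR1-L2 DV line, 74 in sadr1-26.6 and 109 in sadr1-30.4, a ratio of 0.52 [0.21, 0.85] in the ADR1-L2 DV line and -0.77 [-1.21, -0.36] in sadr1-26.6. The methyltransferases IGMT1 (AT1G21100) and IGMT2 (AT1G21120) act next. IGMT1 had 36, 110, 25 and 27 reads and a ratio of 1.31 [0.78, 1.92] in the ADR1-L2 DV line, so its interval reached below 2-fold. IGMT2 had 158, 135, 83 and 128 reads and ratios of -0.50 in the ADR1-L2 DV line and -0.89 [-1.3, -0.50] in sadr1-26.6. These copies were 81.99% identical with a longest identical run of 71 bases, and their relative IGMT4 had 4995 reads in Col-0, so reads may have been shared among them. IGMT1 was highest in ADR1-L2 DV and IGMT2 in Col-0.

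PEN2 (AT2G44490), the myrosinase that activates indole glucosinolates at sites of attack, and PEN3 (AT1G59870), the transporter that exports the products, act at the end of the pathway. PEN2 had 3452 reads in Col-0, 4236 in the ADR1-L2 DV line, 3732 in sadr1-26.6 and 3529 in sadr1-30.4, and its ratio was 0.02. PEN3 had 30263, 50354, 27558 and 25704 reads and a ratio of 0.46 [0.44, 0.48]. PEN3 had the highest level per kb of all 34 genes in each genotype, at 6417 scaled reads per kb in Col-0 and 8804 in the ADR1-L2 DV line. The 3 genes shared by both branches, the C-S lyase SUR1 (AT2G20610), the gamma-glutamyl peptidase GGP1 (AT4G30530) and the glucosyltransferase UGT74B1 (AT1G24100), had ratios of -0.41, -0.24 and -0.27. Their reads ran from 1459 to 2998 in Col-0 and from 1465 to 3071 in the ADR1-L2 DV line. None was past 2-fold in any comparison to Col-0, and with scaling by total reads each ratio would lie 0.20 higher.

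In the suppressors, 0 of the 19 aliphatic and 0 of the 11 indole genes were past 2-fold from Col-0 in either direction. Over all genes, sadr1-26.6 was past 2-fold above Col-0 at 1.49% and below at 2.06%, and sadr1-30.4 at 1.04% and 1.75%. Both comparisons use the same Col-0 values as that of ADR1-L2 DV. Against ADR1-L2 DV, 15 of the 19 aliphatic genes were past 2-fold higher in sadr1-26.6 and 15 in sadr1-30.4, beside 6.32% and 8.55% of all genes. The median log2 ratios were 1.54 and 1.94. In the indole branch 1 gene was past 2-fold higher and 3 lower in sadr1-26.6, and 1 higher and 2 lower in sadr1-30.4, beside 8.35% and 10.1% of all genes in the lower direction. The gene past 2-fold higher in each was MYB34. MAM3 was the 1 aliphatic gene past 2-fold lower in sadr1-26.6 than in ADR1-L2 DV, at -1.34.

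The suppressors differed from each other in the aliphatic branch. In sadr1-30.4 all 19 aliphatic genes lay above Col-0, by 0.05 to 0.67 with a median of 0.29, where 51.0% of all genes lay above. In sadr1-26.6, 7 lay above and 12 below, with a median of -0.07, where 46.7% of all genes lay above. Set side by side, sadr1-30.4 lay above sadr1-26.6 at 19 of 19 genes with a median of 0.38, and at 17 of 19 with TMM scaling, while over all genes 50.1% lay above. Of these only MAM3 was past 2-fold, at 1.48 [1.03, 1.98], beside 1.72% of all genes in that direction and 1.54% in the other. Whether this difference exceeds the variation between plants was not tested, since no value per sample was used.

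The regulators showed the same order. Against Col-0, MYB28 was at -0.31 [-0.42, -0.21] in sadr1-26.6 and 0.31 [0.21, 0.41] in sadr1-30.4. MYB29 was at -0.58 [-0.74, -0.41] and 0.28 [0.14, 0.42], and MYB76 at 0.15 [-0.56, 0.87] and 0.67 [0.04, 1.34]. For MYB28 and MYB29 the suppressors thus lay on opposite sides of Col-0 beyond counting error. The indole genes had medians of -0.10 in sadr1-26.6 and -0.22 in sadr1-30.4, with 5 genes above and 6 below Col-0 in each, near the 46.7% and 51.0% of all genes that lay above.

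**Figure D4:**
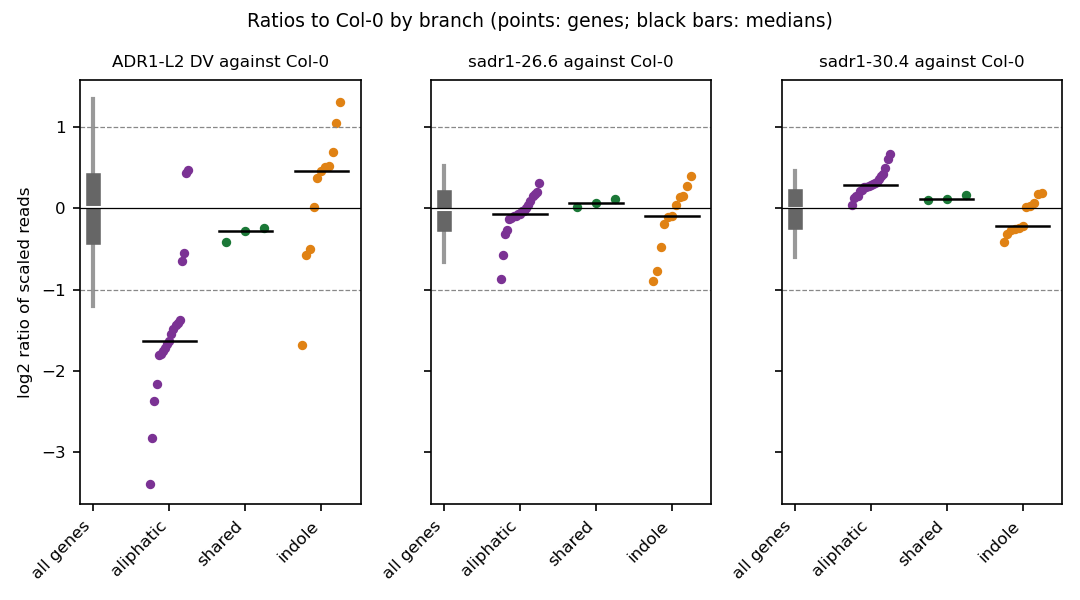
Log2 ratios to Col-0 in the 3 other genotypes, with a point per gene, a black line at each branch median and, for all genes, a gray bar from the lower to the upper quartile on a thinner line from the 5th to the 95th percentile. The aliphatic median is -1.63 in the ADR1-L2 DV line, -0.07 in sadr1-26.6 and 0.29 in sadr1-30.4, and the indole median is 0.46, -0.10 and -0.22.

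Further genes of the pathway, outside the 35, were less uniform. Of 23 with enough reads, 6 were past 2-fold lower in ADR1-L2 DV and 1 higher, beside 7.12% and 7.69% of all genes, with a median of -0.22. The glutathione transferases GSTF11 and GSTU20, which are linked to sulfur addition in the aliphatic branch, had 174 and 3565 reads in Col-0 and 29 and 814 in the ADR1-L2 DV line, with ratios of -2.81 and -2.41. IGMT5, which methylates the ring nitrogen of indole glucosinolates, had 169 and 37 reads and a ratio of -2.43. CYP81F1, a relative of CYP81F2, was the gene past 2-fold higher, with 222 and 703 reads and a ratio of 1.38 [1.17, 1.61]. CYP81F3, another relative, was past 2-fold lower, with 205 and 69 reads and a ratio of -1.83 [-2.26, -1.45]. Among the bHLH partners of the MYB activators, MYC5 had 48 reads in Col-0 and 3 in the ADR1-L2 DV line, a ratio of -3.83 [-6.61, -2.65], and MYC2, MYC3 and MYC4 stayed within 2-fold at 0.23, 0.37 and -0.99.

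The genes that supply precursors were mostly within 2-fold. Activated sulfate and glutathione serve both branches, and tryptophan is the start of the indole branch. Of 9 genes for sulfate activation and glutathione, 8 lay below Col-0 in the ADR1-L2 DV line with a median of -0.50, and APS3, an ATP sulfurylase, was the 1 past 2-fold at -1.11. Of 7 tryptophan synthesis genes, 0 were past 2-fold and 5 lay above Col-0, with a median of 0.19. Over all 17442 genes, 9076 lay above Col-0 and 8366 below, and 7.69% were past 2-fold higher and 7.12% lower.

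Markers of leaf cell types also differed in ADR1-L2 DV. Aliphatic synthesis genes are known to be active near the vasculature. Of 12 vascular markers, 10 lay below Col-0 with a median of -0.73, where 8366 of all 17442 genes lay below. Past 2-fold lower were 3 of the 12, beside 7.12% of all genes. In both suppressors 10 of the 12 also lay below Col-0, with medians of -0.26 in sadr1-26.6 and -0.20 in sadr1-30.4. Over all genes, 9135 of 17152 lay below in sadr1-26.6 and 8405 of 17164 in sadr1-30.4. The summed level of the 12 was 19642 scaled reads in Col-0, 13015 in the ADR1-L2 DV line, 18117 in sadr1-26.6 and 17484 in sadr1-30.4, and none was at 0. SULTR2;1, a sulfate transporter of vascular cells, had 3044 reads in Col-0 and 714 in the ADR1-L2 DV line, while SUC2, the sucrose transporter that defines companion cells, had 5333 and 4064. The 3 past 2-fold lower were SULTR2;1, SEOR1 and XCP1, with log2 ratios of -2.37, -1.67 and -1.01. SWEET11 and SWEET12 were the 2 above Col-0, at 0.11 and 0.68. All 7 mesophyll markers also lay below Col-0, against the same 8366 of 17442 genes, with a median of -0.65 and 0 past 2-fold, and their summed level was 1703951 scaled reads in Col-0, 1104765 in the ADR1-L2 DV line, 1837774 in sadr1-26.6 and 1817736 in sadr1-30.4. The part of cell composition in the aliphatic difference was not tested.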

How the data were processed

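Leaf RNA of 12 samples, grouped by their titles into 4 genotypes of 3, was analysed from 1 deposited table with AGI codes. The authors deposited 4 columns, 1 per genotype, headed RPKM. These are whole numbers that sum to between 20013826 and 21277026 per genotype, which RPKM values would not. They were therefore treated as read counts that the authors combined over the samples of a genotype before they were deposited. Whether they are sums or means is not given in the sources used here, so depth per sample and the counting intervals rest on that assumption. The 6 other columns hold the authors' log2 fold changes and FDR values for each genotype against Col-0 and were not used. The submitters' processing notes name TAIR10. For the aligner, the counter and strandedness, versions and settings were not given in the sources used here.

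Counts were scaled by the median of ratios over 9998 genes with at least 200 reads in every genotype, and log2 ratios were taken with a pseudocount of 1. Ratios were assessed at 20 or more scaled reads in the higher genotype. Intervals are exact Clopper-Pearson at 95%. With 1 value per genotype no test was run. Levels between genes were compared per kb of exon (RefSeq, TAIR10.1, in which 28009 codes were found). Python 3.11.15, pandas 2.3.3, SciPy 1.17.1, Biopython 1.88, matplotlib 3.10.9, and R 4.3.3 with edgeR 4.0.16 for TMM factors only were used. The ratio computation was tested on simulated data.

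The members and gene lists were chosen with earlier results of these data known. All members are accounted for. Values in full are given for the regulators, every member past 2-fold in ADR1-L2 DV, the most abundant of each branch and the 2 of each branch farthest from Col-0 in a suppressor, and for others where a pair or step is described. From each further list, up to 3 genes per direction past 2-fold are named, and others named there, the ratios between pairs of genes, and the counts above 0 under other scalings were chosen after values were seen. Alternatives were TMM and total-read scaling, pseudocounts of 0.5 and 5, no filter or 100 scaled reads, a fold of 1.5, and an interval beyond 0. A further alternative left out the paired copies CYP79F1 and CYP79F2, MAM1 and MAM3, SOT17 and SOT18, and IGMT1 and IGMT2. The coding sequences within these pairs were 76.48% to 90.71% identical. FMO GS-OX1 and FMO GS-OX3, at 82.58%, were kept.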

Additional observations from a re-analysis of the deposited data

How the results depend on the processing

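No paired analysis was possible because the values analysed are 1 per genotype, and leaving out single replicates was not run for the same reason. With TMM or total-read scaling, or a pseudocount of 0.5 or 5, all counts past 2-fold and all differences between branch medians were close to the values reported. Total-read scaling raised ratios of ADR1-L2 DV to Col-0 by 0.20. The number of aliphatic genes past the fold lower in ADR1-L2 DV, 15 as reported, ran from 12 without the paired copies to 16 at a fold of 1.5. Leaving out the paired copies also lowered the number of genes compared, so the 12 are out of fewer than 19. Counts of few genes were less stable. With at least 100 scaled reads, and also without the paired copies, 1 indole gene was past the fold higher in ADR1-L2 DV than in Col-0 instead of 2, and 1 was lower in sadr1-30.4 than in ADR1-L2 DV instead of 2. The aliphatic minus indole median for sadr1-30.4 against Col-0 was 0.38 and 0.27 under these settings instead of 0.51. It was -0.12 instead of 0.03 for sadr1-26.6 against Col-0 without the paired copies. For sadr1-30.4 against ADR1-L2 DV it was 2.23 instead of 2.42 with at least 100 scaled reads. Without the paired copies, MAM3 no longer entered, so 0 aliphatic genes were lower in sadr1-26.6 than in ADR1-L2 DV and 0 higher in sadr1-30.4 than in sadr1-26.6. At a fold of 1.5, 1 aliphatic and 2 indole genes were lower in sadr1-26.6 than in Col-0, 2 aliphatic genes were higher in sadr1-30.4 than in Col-0, 2 were lower in sadr1-26.6 than in ADR1-L2 DV, 4 indole genes were lower in sadr1-30.4 than in ADR1-L2 DV, and 4 aliphatic genes were higher in sadr1-30.4 than in sadr1-26.6. With no filter, 1 indole gene was lower in sadr1-30.4 than in sadr1-26.6. MYB76, MYB122 and IGMT1 had the fewest reads.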

Other observations

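The side chain oxygenase FMO GS-OX2, outside the 35 genes, had 70 reads in Col-0, 83 in the ADR1-L2 DV line, 250 in sadr1-26.6 and 62 in sadr1-30.4. Its log2 ratio in sadr1-26.6 was 1.85 [1.48, 2.27], while its relatives FMO GS-OX1 and FMO GS-OX3 stayed within 2-fold of Col-0 there. IGMT3 had 94 reads in Col-0 and 38 in sadr1-26.6, a ratio of -1.25 [-1.86, -0.72]. Among markers of other cell types in ADR1-L2 DV, the epidermal gene PDF1 had 16 reads in Col-0 and 384 in the ADR1-L2 DV line, and the trichome gene GL2 had 36 and 95. The other 4 assessed genes of that list, ATML1, CUT1, MYB60 and HT1, lay below Col-0 and within 2-fold, at -0.13, -0.06, -0.04 and -0.44, and the median of the 6 was -0.05. These values have no replicate check, and were chosen after they were seen.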
